A study of Sus scrofa with 8 samples.

Results

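When pig islets are placed in a human recipient, they meet antibodies, complement and clotting factors in the blood, and 10 genes that set this first contact were examined here in neonatal pig islets. They are GGTA1, CMAH, CD46, CD55, CD59, F3, TFPI, THBD, PROCR and ENTPD1. Every probe set whose single gene symbol in the array's annotation equals one of these names was taken, whatever its level, and a probe set is a group of short probes for the same transcript, read together as 1 intensity. This gave 17 of the 23999 probe sets other than controls, for 9 of the 10 genes (of 6765 genes named on the array), and 16 of them passed the filter on dim signals. No probe set carried the symbol GGTA1. The annotation lists 3 probe sets of its gene ID under GGTA1P, a name that RefSeq pairs with GGTA1, and these 3 were added by gene ID after the files had been seen and are counted apart. Where a gene has several probe sets they are called A, B and so on here, and the plots give the array's own identifier beside each letter.

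The islets came from 4 male Duroc/Large white cross pigs of 7 days and 4 of 3 days of age, and each pig gave 1 array on the Affymetrix porcine GeneChip. Both groups shared the same preparation. The pancreas was cut up and digested with Type XI collagenase, and the tissue then spent 7 days in culture, in Ham's F10 with glucose, isobutylmethylxanthine, albumin, glutamine, calcium chloride, nicotinamide, penicillin and streptomycin. The RNA therefore came from cultured tissue, not from fresh islets, and it was amplified before labelling, with an extra round for samples of low yield that are not identified. The series addresses immunogenic differences between islets of the 2 ages.

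Pig cells carry sugars that human antibodies bind. GGTA1 is the galactosyltransferase that makes the alpha-Gal epitope, and CMAH is the hydroxylase that makes N-glycolylneuraminic acid. CD46, CD55 and CD59 form a shield against complement on the cell membrane: CD46 helps to cleave deposited complement fragments, CD55 speeds the decay of the convertases, and CD59 blocks the membrane attack complex. F3 encodes tissue factor, which starts coagulation when a cell meets blood and is held responsible for the clotting around transplanted islets. TFPI inhibits tissue factor, thrombomodulin (THBD) turns thrombin into an activator of protein C, the endothelial protein C receptor (PROCR) presents protein C to it, and ENTPD1, also called CD39, breaks down the ATP and ADP that activate platelets.

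The 8 arrays were much alike in scale. Array medians lay between 171.6 and 178.5, the 20th percentile lay between 26.4 and 31.3 and at most 1 value was identical between any pair of arrays. Islet hormones were bright in both groups, with INS at 23694 ± 4216 in islets labelled 7-day-old and 24649 ± 2214 in those labelled 3-day-old (SD, n = 4 each), so the tissue carried the markers of its label. Islets of the ages were set against each other on log2 intensities with limma, two-sided and Benjamini-Hochberg adjusted over all 21574 probe sets tested, and a probe set is said to have risen or fallen only where the adjusted p was under 0.05. All differences are 7-day-old minus 3-day-old. They follow the deposited sample labels and run opposite to the published direction for these arrays. Of 108 probe sets that could be matched to a published direction, THBD among them, 108 had the opposite sign. The study also counted endocrine and immune cells in islets of both ages by other methods. These counts bear on where the exchange lies and were not used to settle it. Which of the sets of labels is exchanged was not tested. Nothing in the labels says that the pigs came from separate litters, so the p-values measure the spread between these 8 pigs.

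Among the 10 genes, THBD, F3 and, on 1 of its 3 probe sets, GGTA1 fell in 7-day-old islets, and none rose. THBD was 4.54-fold lower, F3 was 1.55-fold lower and GGTA1 was 1.49-fold lower on that probe set. Islets hold several cell types, and in such bulk samples fewer cells of a type and less RNA per cell cannot be told apart. By symbol, 2 of the 16 tested probe sets were called lower and 0 higher, against 5.47% of all tested probe sets called lower and 5.21% called higher. Adding the 3 GGTA1 probe sets made it 3 lower of 19. Without adjustment 7 of the 16 had a p under 0.05, against 27.9% of all probe sets. A negative difference was seen in 9 of 16, against 50.1%, and the median difference was -0.18 on the log2 scale, against 0.00 over all probe sets tested. The ages did not overlap in 2 of 16, or in 4 of 19 with GGTA1, against 21.2% of all tested. No tested probe set of these genes had passed the filter through only 1 of the ages.

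**Figure D1:**
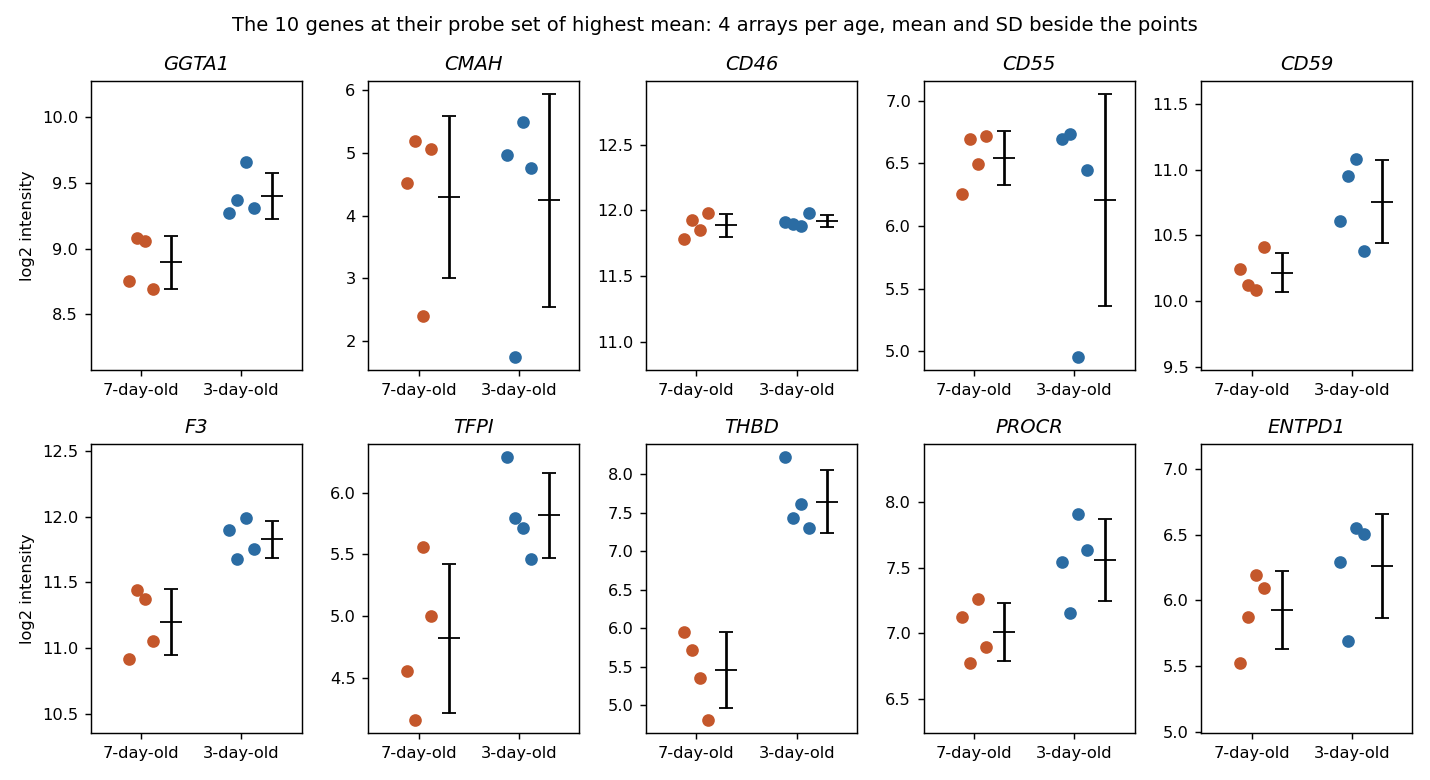
Log2 intensity (y axis, a separate range in each panel) of each of the 10 genes at its probe set of highest mean, with a point for each of 4 arrays labelled 7-day-old and 4 labelled 3-day-old, and the mean with its SD beside the points. THBD, F3 and GGTA1 show no overlap between the ages, as was the case for 21.2% of all tested probe sets. The GGTA1 panel shows probe set A, which did not pass the threshold. CD46 lies at the same height in both ages and CD55 has 1 low 3-day-old array at 31.0 on the linear scale.

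GGTA1 read lower at 7 days on each of its 3 probe sets, and 1 of them passed the threshold. On probe set C the intensities were 120, 148, 149 and 121 in the 7-day-old arrays, against 199, 219, 185 and 192 in the 3-day-old arrays. The ages did not overlap, and GGTA1 fell by 0.57 on the log2 scale on this probe set (SE 0.112, 95% interval -0.83 to -0.31, limma adjusted p = 0.0214). On probe set A the values were 432, 541, 534 and 414 at 7 days, against 618, 662, 807 and 634 at 3 days. There the ages did not overlap either, but the difference of -0.50 did not pass (SE 0.136, limma adjusted p = 0.0556). Probe set B averaged 328 ± 39.0 at 7 days and 415 ± 90.3 at 3 days (SD, n = 4 each). Its ages overlapped, and its difference of -0.32 did not pass (95% interval -0.73 to 0.09, adjusted p = 0.288). The call on C was lost without replicate 1 (adjusted p = 0.0587) or 4 (0.0514) of 7 days and without replicate 2 of 3 days (0.0595). Probe set A passed with an intensity trend (adjusted p = 0.0164), a stricter filter (0.0166), array quality weights (0.0497) or an offset of 16 (0.0468).

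CMAH was at or near the dim end of the arrays. Its probe set A read 22.9, 36.6, 5.29 and 33.4 in 7-day-old islets, against 31.2, 3.35, 45.3 and 27.2 in 3-day-old islets, and 2 arrays of each age reached their 20th percentile. The lowest array of each age was several-fold under the others, and the ages overlapped almost wholly. The difference was 0.05 with a 95% interval of -2.16 to 2.26 (adjusted p = 0.98), an interval that takes in 4-fold changes either way. Its sign turned when any of 4 arrays was left out. CMAH probe set B averaged 6.83 ± 4.81 at 7 days and 11.9 ± 4.10 at 3 days (SD, n = 4 each), reached the 20th percentile in 0 arrays and was not tested.

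The genes around this step were given by a list of 28 genes of sugar-antigen synthesis, of which 18 were tested at 1 probe set each, the one of highest mean. Of these 18, 6 fell and 0 rose, with a median difference of -0.13, against 7.15% of 6545 genes called lower and 5.03% called higher at 1 probe set each (median -0.02). The sialyltransferases ST3GAL1, ST6GAL1 and ST8SIA4, which cap or extend sugar chains with sialic acid, fell furthest. ST3GAL1 averaged 931 ± 88.2 at 7 days and 1886 ± 185 at 3 days (SD, n = 4 each; difference -1.02, adjusted p = 0.0054). For ST6GAL1 the means were 995 ± 119 at 7 days and 1962 ± 160 at 3 days (-0.98, adjusted p = 0.00577), and for ST8SIA4 they were 312 ± 65.2 at 7 days and 809 ± 99.1 at 3 days (-1.39, adjusted p = 0.00631). All these calls held with each array left out in turn, as did that of the galactose kinase GALK1 (-0.79, adjusted p = 0.0135). Of the other tested probe sets, 2 of 3 were called for ST3GAL1, 0 of 1 for ST6GAL1 and 0 of 1 for ST8SIA4. Each of these had the same sign. The galactosyltransferases B4GALT5 (-0.65, adjusted p = 0.0329) and B4GALT1 (-0.43, adjusted p = 0.0461), which add galactose to growing sugar chains, fell as well. B4GALT5 passed only without 7-day-old replicate 1 or 3 among the fits with 1 array left out (adjusted p up to 0.0841). B4GALT1 passed only without 7-day-old replicate 4 (up to 0.111). The 2 other tested probe sets of B4GALT5 were both called on all 8 arrays, with the same sign. With 1 array left out, 4 to 5 genes of the list fell. CMAS and NANS, which prepare sialic acid for transfer, had differences of -0.06 and 0.05 that did not pass.

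CD46 overlapped between the ages on all 3 of its probe sets, with differences close to 0. Probe set A read 3524, 3894, 3691 and 4047 at 7 days, against 3853, 3806, 3765 and 4047 at 3 days. Its difference was -0.03 with a 95% interval of -0.22 to 0.15 (adjusted p = 0.839). Probe set B averaged 486 ± 92.2 at 7 days and 470 ± 53.3 at 3 days, and probe set C averaged 271 ± 28.0 at 7 days and 267 ± 34.5 at 3 days (SD, n = 4 each). The intervals of these differences ran from -0.33 to 0.40 and from -0.28 to 0.32, so all 3 probe sets leave room only for changes well under 2-fold.

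CD55 read near the dim end of the arrays on most of its 5 probe sets, and these did not give 1 answer. On probe set A the 7-day-old arrays read 76.2, 104, 90.0 and 105, against 103, 107, 31.0 and 87.2 in the 3-day-old arrays. Only 3-day-old replicate 3 stood apart, and the difference of 0.33 (95% interval -0.58 to 1.25, adjusted p = 0.634) became -0.08 without it. Probe set B read 62.4, 118, 59.9 and 111 at 7 days, against 61.3, 70.1, 20.1 and 29.8 at 3 days. Its ages overlapped and its difference of 1.06 (95% interval 0.01 to 2.11, adjusted p = 0.174) became 0.73 without the same array. Among probe sets C, D and E, which averaged between 15.9 and 42.6 in either age, the differences were -0.72, 0.85 and 1.40, and 0 of these 3 passed. The largest of these, on probe set E, became 0.44 without 3-day-old replicate 3, which read 2.17 there. Over all 20 probe sets of the 10 genes this array was the lowest of its age in 7, among them 3 of CD55, and the highest in 7.

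**Figure D2:**
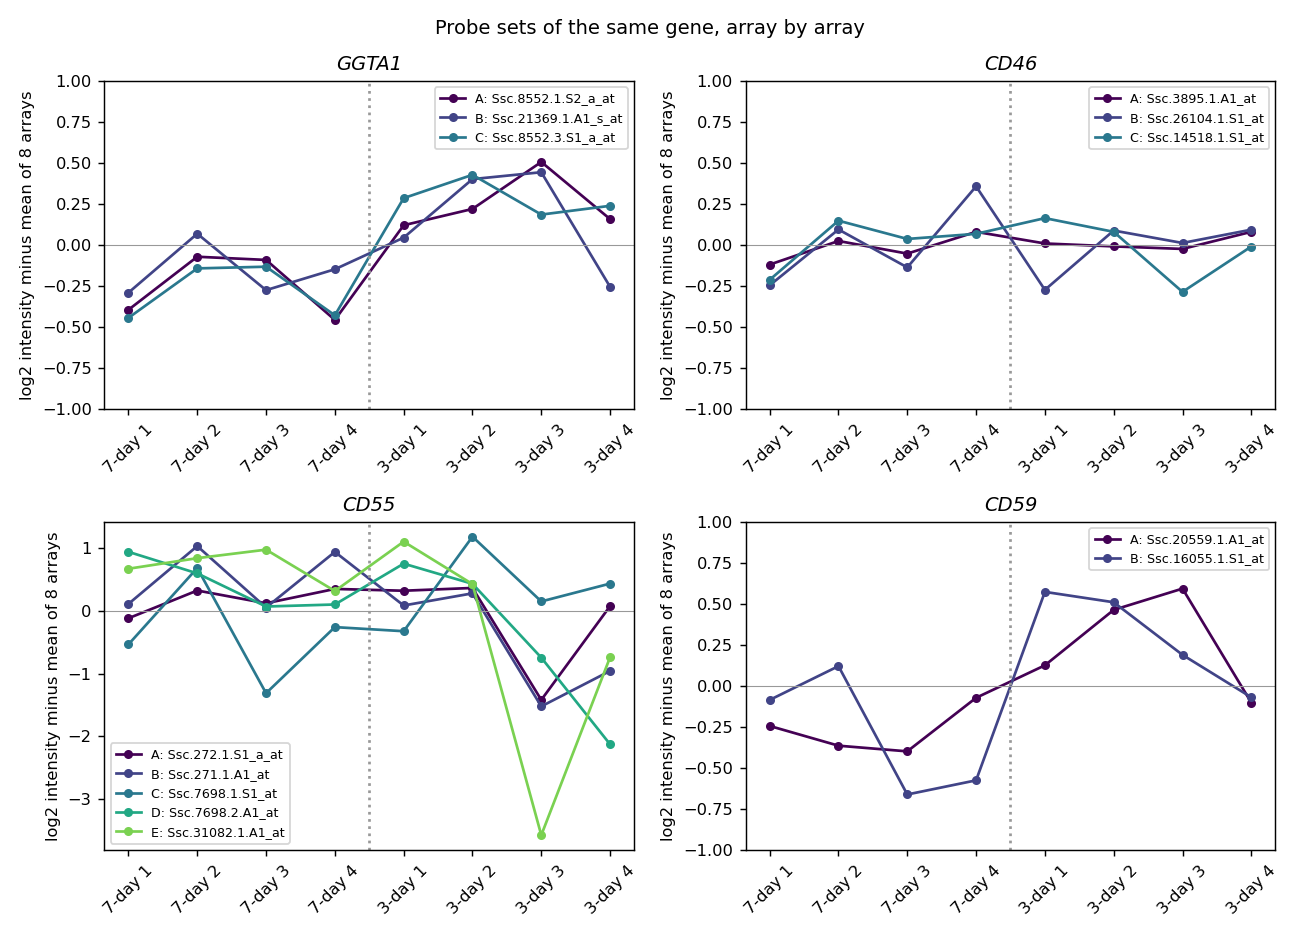
Log2 intensity minus the mean of the 8 arrays (y axis) for each probe set of GGTA1, CD46, CD55 and CD59 (letters and identifiers in the legends), array by array (x axis, arrays labelled 7-day-old left of the dotted line, replicates in no order). The 3 GGTA1 lines and the pair of CD59 lines lie mostly lower on the left, the CD46 lines stay near 0, and replicate 3 of 3 days is the lowest of its age on 3 of the 5 CD55 lines.

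CD59 read lower at 7 days on both of its probe sets without passing the threshold. On probe set A the values were 1212, 1115, 1089 and 1365 at 7 days, against 1565, 1978, 2164 and 1337 at 3 days. Of the 3-day-old arrays, 3 lay above every 7-day-old array and replicate 4 lay among them. The difference was -0.54 (SE 0.169, 95% interval -0.93 to -0.15, adjusted p = 0.0848). It passed without 3-day-old replicate 4 (-0.66, adjusted p = 0.0426), with the stricter filter (adjusted p = 0.0291) and with an intensity trend (adjusted p = 0.0208). Probe set B averaged 65.8 ± 17.2 at 7 days and 98.8 ± 19.7 at 3 days (SD, n = 4 each), with a difference of -0.60 (adjusted p = 0.131).

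Over the 10 tested probe sets of the complement shield, 0 were called, against 10.7% of all tested probe sets. An unadjusted limma p under 0.05 was seen in 3 of the 10, near the 27.9% of all tested, and the median difference was 0.03. In a wider list of 17 complement regulators, 12 were tested, 1 rose and 1 fell, close to the shares of all genes called higher (5.03%) and lower (7.15%), with a median of -0.01. C4BPB, the beta chain of the C4b-binding protein that regulates complement in plasma, rose in 7-day-old islets to 1241 ± 78.6, against 570 ± 71.8 in 3-day-old islets (SD, n = 4 each; difference 1.13, SE 0.112, adjusted p = 0.0044), and passed with each array left out. Its partner C4BPA averaged 47.5 ± 18.1 at 7 days and 71.0 ± 21.9 at 3 days, a difference of -0.58 that did not pass (adjusted p = 0.284). SERPING1, the C1 inhibitor, fell to 814 ± 77.0 at 7 days, against 1528 ± 321 at 3 days (difference -0.89, adjusted p = 0.0181). That call was lost without replicate 1 of 7 days (adjusted p = 0.0511) or replicate 2 of 3 days (0.053). Clusterin (CLU), which blocks assembly of the attack complex, was bright and did not pass (difference 0.03, adjusted p = 0.86).

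F3 fell at 7 days, and its ages did not overlap. The 7-day-old arrays read 1937, 2784, 2651 and 2121, against 3809, 3267, 4065 and 3447 in the 3-day-old arrays. All 4 arrays labelled 7-day-old lay below the lowest of those labelled 3-day-old, as was the case for 10.3% of all tested probe sets. The mean was 2373 ± 408 at 7 days and 3647 ± 359 at 3 days (SD, n = 4 each), a fall of 1.55-fold (difference -0.63, SE 0.144, 95% interval -0.97 to -0.29, limma adjusted p = 0.0344). The direction held with each array left out, with differences from -0.71 to -0.54. The call did not: among the fits with 1 array left out it passed only without replicate 2 (adjusted p = 0.0462) or 3 (0.0469) of 7 days. It was lost without replicate 1 (0.0754) or 4 (0.0803) of 7 days, and without replicate 1 (0.077), 2 (0.0613), 3 (0.0865) or 4 (0.0581) of 3 days.

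Of 26 listed coagulation genes, F3 among them, 14 were tested, 4 fell and 0 rose, against 7.15% of all genes lower and 5.03% higher, with a median difference of -0.10. F13A1, which the study reported as changed, had no probe set under its name in the annotation and was left out. KNG1, the kininogen of the contact pathway, fell to 145 ± 48.7 at 7 days, against 434 ± 97.9 at 3 days (SD, n = 4 each; difference -1.60, adjusted p = 0.0127). FGL2, a membrane prothrombinase, fell to 105 ± 21.9 at 7 days, against 312 ± 96.9 at 3 days (-1.54, adjusted p = 0.013). Both passed with each array left out. Of the other tested probe sets, 1 of 3 was called for KNG1 and 2 of 2 for FGL2, all with the same sign. F2R, the thrombin receptor, fell to 421 ± 60.7, against 711 ± 120 at 3 days (-0.75, adjusted p = 0.0276), but passed only without replicate 4 of either age (adjusted p up to 0.075 without another array). F5, F8, F9, FGB and FGG, which the liver and vessel wall supply to plasma, averaged between 18.8 and 42.0 in either age, and 0 of these 5 passed.

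THBD showed the greatest difference of the 10 genes. The intensities were 61.8, 52.4, 41.0 and 28.1 in 7-day-old islets, against 299, 172, 195 and 158 in 3-day-old islets. The highest 7-day-old array lay well under the lowest 3-day-old array, and all 8 arrays reached their own 20th percentile. The 7-day-old values were dim, however, and replicate 4 at 28.1 lay close to the 20th percentile of its array, 26.4. The mean was 45.8 ± 14.6 at 7 days and 206 ± 63.7 at 3 days (SD, n = 4 each), a fall of 4.54-fold (difference -2.18, SE 0.293, 95% interval -2.86 to -1.50, limma adjusted p = 0.00739). The call passed with each array left out (differences from -2.35 to -1.97, adjusted p up to 0.0255). In 9 alternative fits on all arrays the difference lay between -2.19 and -1.84. The call passed in 8 of these and was lost with the block for the replicate number. The stricter filter left THBD out. Pig thrombomodulin is known to work poorly with human thrombin and protein C, and the array measures its RNA only.

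TFPI and PROCR also read lower at 7 days, but neither passed. TFPI was dim, with 23.5, 17.9, 47.2 and 32.1 at 7 days, against 78.3, 55.5, 52.5 and 44.2 at 3 days, and only 2 of the 4 7-day-old arrays reached their 20th percentile. The ages overlapped by 1 array on each side (difference -0.997, SE 0.315, 95% interval -1.73 to -0.26, adjusted p = 0.0874), and the test passed without 7-day-old replicate 3 (-1.24, adjusted p = 0.0404) and with array quality weights (adjusted p = 0.0473). PROCR read 139, 109, 154 and 119 at 7 days, against 186, 143, 241 and 198 at 3 days. There too 1 array of 3 days, replicate 2, lay among those of 7 days (difference -0.55, SE 0.182, adjusted p = 0.0993).

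**Figure D3:**
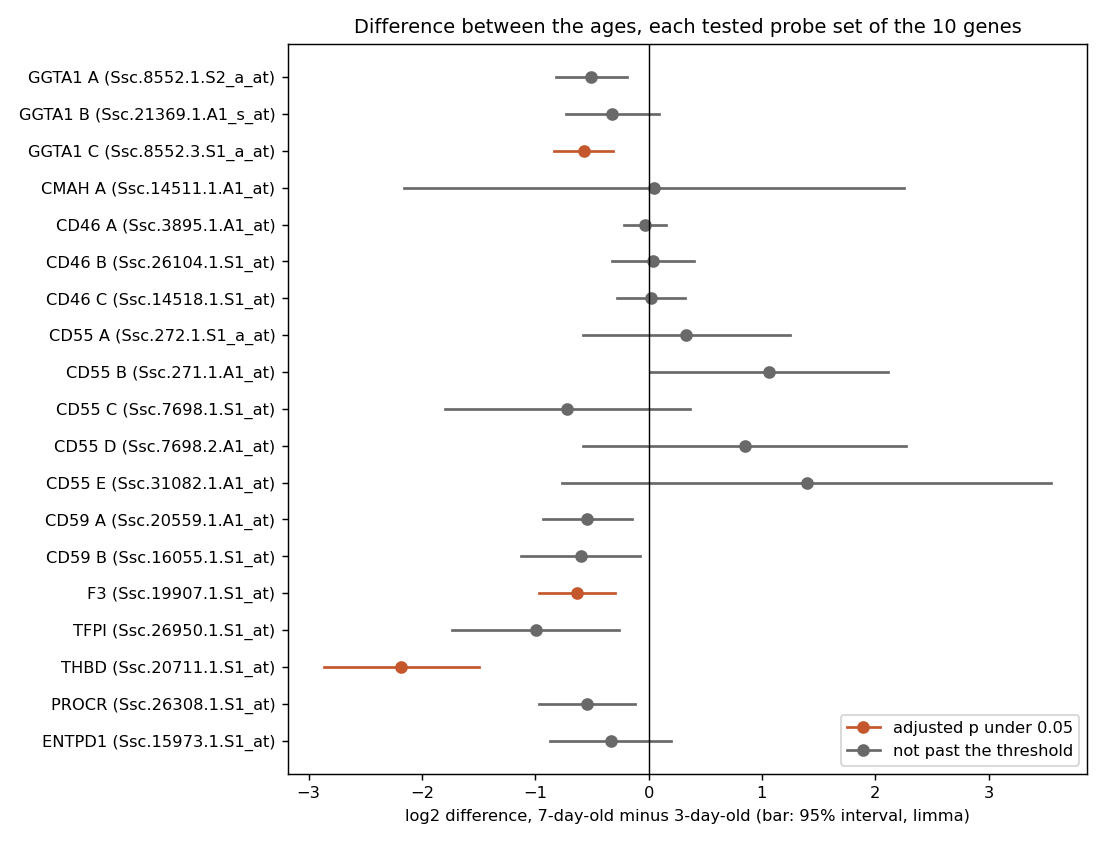
Log2 difference, 7-day-old minus 3-day-old (x axis), with its 95% interval from limma, for each tested probe set of the 10 genes (down the page), n = 4 arrays per age. THBD lies furthest left at -2.18, F3 and 1 GGTA1 probe set are the others past the threshold, the CD46 intervals are narrow around 0, and those of CMAH and CD55 are wide.

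Among 15 listed anticoagulant genes, 11 were tested, 3 fell and 0 rose, against 7.15% and 5.03% of all genes, with a median difference of -0.56. Beside THBD, these were TFPI2 and SERPINE2. TFPI2, a matrix-bound relative of TFPI that inhibits plasmin more than tissue factor, fell to 3755 ± 619 at 7 days, against 7044 ± 1143 at 3 days (SD, n = 4 each; difference -0.91, adjusted p = 0.015), and passed with each array left out. SERPINE2, the thrombin inhibitor protease nexin, fell to 254 ± 66.2, against 648 ± 189 at 3 days (-1.34, adjusted p = 0.0343), but among the fits with 1 array left out it passed only without 3-day-old replicate 4 (adjusted p up to 0.0868). Annexin A5 (ANXA5), which covers the phospholipid on which clotting factors assemble, did not overlap between the ages, at 4087 ± 880 at 7 days and 5929 ± 508 at 3 days, and did not pass (-0.56, adjusted p = 0.0637). Protein S (PROS1), the cofactor of activated protein C, had a difference of -0.24 that did not pass.

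Clot removal was covered by 15 genes, of which 10 were tested, 2 fell (7.15% over all genes) and 0 rose (5.03%), with a median of -0.56. PLAT, the tissue plasminogen activator, fell to 1068 ± 137 at 7 days, against 1744 ± 171 at 3 days (SD, n = 4 each; difference -0.71, adjusted p = 0.0161), and passed with each array left out. SERPINE2, named above, was the other. PLAU, the urokinase gene, had a difference of -1.06 that did not pass (adjusted p = 0.0561). With 1 array left out the fibrinolysis list held 1 to 3 falls.

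ENTPD1 did not pass. It read 46.1, 58.7, 73.3 and 68.5 at 7 days, against 78.5, 51.6, 93.6 and 90.9 at 3 days, and the ages overlapped. The difference was -0.34 with a 95% interval of -0.87 to 0.20 (adjusted p = 0.392). In a list of 25 genes of purine signalling and vessel-wall control of platelets, 10 were tested, 1 rose and 1 fell, which at this list size lies near the 5.03% and 7.15% of all genes, with a median of -0.01. ENPP1, an ectoenzyme that cleaves ATP to AMP and pyrophosphate, fell to 952 ± 180 at 7 days, against 1821 ± 52.9 at 3 days (SD, n = 4 each; difference -0.95, adjusted p = 0.00853), and passed with each array left out. SLC29A1, which carries adenosine into cells, rose to 122 ± 19.4 at 7 days, against 54.1 ± 19.0 at 3 days (1.24, adjusted p = 0.0329), and passed only without 3-day-old replicate 1 or 2 among the fits with 1 array left out (adjusted p up to 0.0797).

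**Figure D4:**
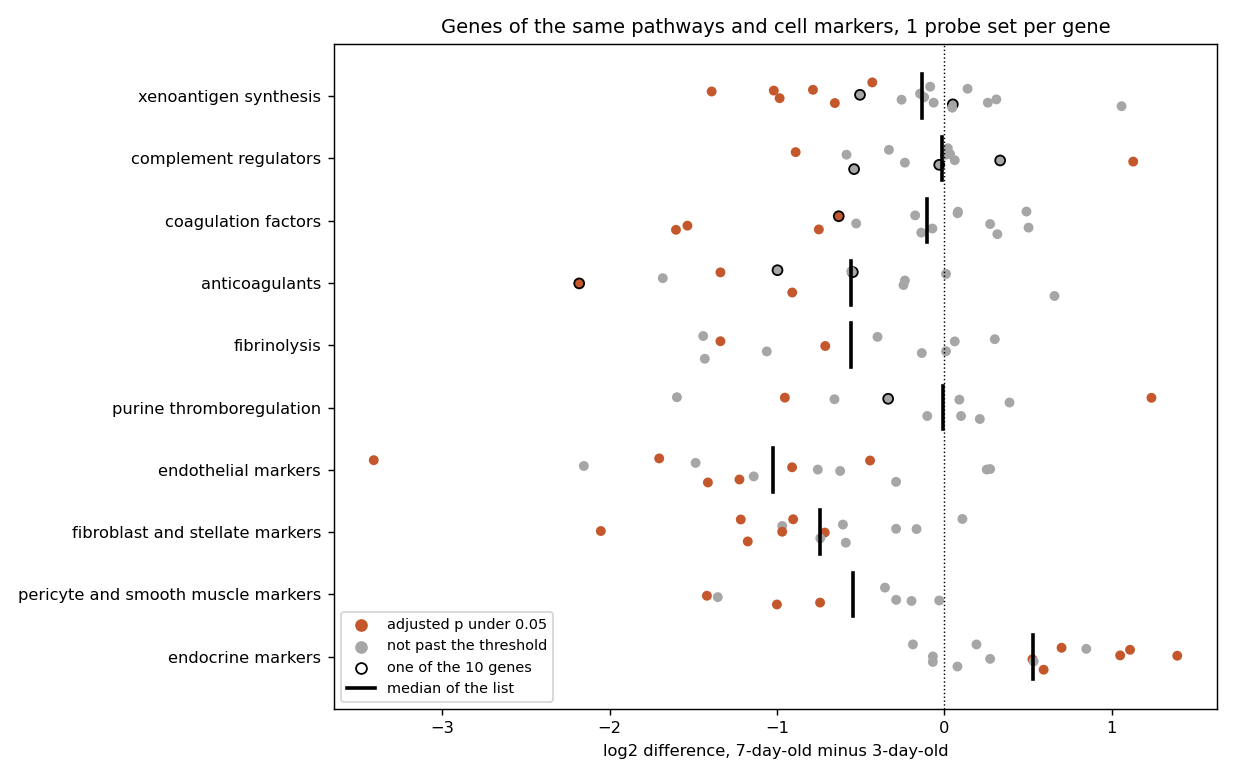
Log2 difference, 7-day-old minus 3-day-old (x axis), of the tested genes of the 6 pathway lists and 4 lists of cell markers (down the page), 1 probe set per gene, with called genes in colour, the 10 genes ringed and the list median as a bar. The anticoagulant and fibrinolysis medians both stand at -0.56, the endothelial median at -1.02 and the endocrine median at 0.53.

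Markers of several cell types differed in the same direction as THBD and F3. All the marker counts here stand against 7.15% of genes called lower and 5.03% called higher over the array, and a median of -0.02. Endothelial cells are a known source of THBD, PROCR, TFPI and ENTPD1. Of 14 tested endothelial markers 6 fell and 0 rose, with a median of -1.02, and their summed intensity was 1292 to 1590 in 7-day-old arrays, against 2465 to 2965 in 3-day-old arrays. PECAM1 fell to 253 ± 40.2 at 7 days, against 820 ± 89.5 at 3 days (SD, n = 4 each; -1.70, adjusted p = 0.00331). TIE1 lay under the 20th percentile in all 4 arrays of 7 days (2.74 to 9.67), against 50.4 to 70.3 at 3 days, so its fold is only a bound. With each 7-day-old array set at its 20th percentile, TIE1 was at least 2.07-fold lower. It was the only called gene of any list to pass the filter through 1 age, and without it 5 of 13 endothelial markers fell, with a median of -0.91. The vascular cadherin CDH5 (-1.41, adjusted p = 0.0192) and the transcription factor ERG (-1.22, adjusted p = 0.018) fell too. CDH5 was lost without 7-day-old replicate 1 (adjusted p = 0.0524) or 2 (0.0547), and ERG without 3-day-old replicate 2 (0.052). VWF, the defining clotting protein of these cells, was dim at 38.0 ± 6.95 in 7-day-old and 37.2 ± 24.6 in 3-day-old islets and did not pass. With 1 array left out 3 to 6 endothelial markers fell, the fewest without 7-day-old replicate 2.

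Fibroblasts and pericytes can carry tissue factor. Of 13 fibroblast and stellate markers 6 fell and 0 rose (median -0.74), with summed intensities of 28844 to 35638 at 7 days, against 40995 to 55820 at 3 days. Of 8 pericyte and smooth muscle markers 3 fell and 0 rose (median -0.55, sums 2035 to 2425 at 7 days, against 3236 to 4310 at 3 days). The macrophage sums were 505 to 872 at 7 days and 849 to 2254 at 3 days, with 1 of 11 markers called lower (median -0.997). The highest sum was that of 3-day-old replicate 1, which also had the highest THBD. Among the 7-day-old arrays the highest sum, 872, was that of replicate 4, which had the lowest THBD. The study's flow cytometry, a protein measure, gave a larger share of macrophages at 7 days than at 3 days. Under the deposited labels these sums run the other way. Platelet markers gave 0 calls among 4 tested (median -0.17). There were also 0 calls among 9 T and NK cell markers, 3 B cell markers and 3 erythroid markers. Of 7 acinar markers 1 fell, and of 10 duct markers 2 fell. Endocrine markers ran the other way, with 6 of 14 higher, 0 lower and a median of 0.53. The 6 were CHGB, SCG2, SCG3, PCSK1, PCSK2 and NEUROD1, whose other probe set had the opposite sign and did not pass. The hormone genes INS, GCG, SST and PPY had differences of -0.07, -0.19, 0.08 and 0.19 that did not pass. The part of these cell types in the differences of THBD, F3 and the other genes was not tested.

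To place THBD and F3, the genes called at their brightest probe set, among all genes, each gene's log2 profile over the 8 arrays was centred on its mean, and genes were ranked by the root mean square of the difference from that of THBD or F3, over 6544 other genes. Nearest to THBD was DCN, decorin, a proteoglycan of the matrix, with a root mean square difference of 0.132 on the log2 scale. BLNK, the B cell linker protein, followed at 0.359 and LOC733579 at 0.387. DCN had a difference of -2.05 between the ages (adjusted p = 0.0126), and it shared with THBD the order of the arrays at 7 days and the high value of 3-day-old replicate 1. Nearest to F3 were VWA5A at 0.0956, ANGPT2, the angiopoietin that loosens vessels, at 0.118 and the transcription factor CEBPD at 0.122, with differences of -0.57, -0.63 and -0.60. These likenesses rest on 8 arrays and on the step between the ages, and are given as a description.

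**Figure D5:**
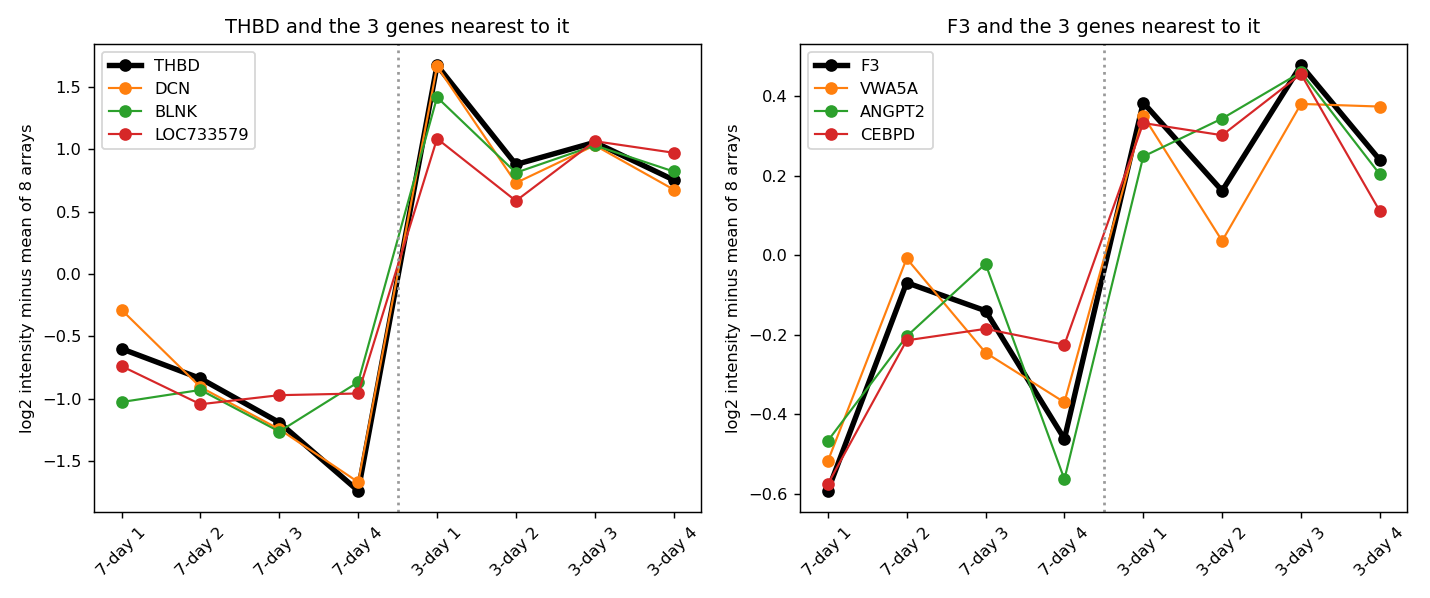
Log2 intensity minus the mean of the 8 arrays (y axis) for THBD and F3 (black) and the 3 genes with the smallest root mean square difference from each, array by array (x axis, arrays labelled 7-day-old left of the dotted line, replicates in no order). DCN follows THBD at 0.132 and VWA5A follows F3 at 0.0956.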

How the data were processed

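Islet RNA of 8 pigs was measured on 8 arrays, 1 per pig, and grouped by the age in the deposited labels. The authors deposited a linear intensity for each probe set on each array, scaled to a common mean after trimming 2% at each end (recomputed here as 500.1 in every array). Which software summarised the probes is not stated in what was read here. The methods describe division by each probe set's median and an analysis in GeneSpring GX 11.5, and the deposited intensities do not hold the division. An additional amplification of low-yield samples is stated without naming them.

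Intensities below 1 (1528 values) were set to 1 and put on the log2 scale. Control probe sets (124 of 24123) were left out, and those at or above their array's 20th percentile in 1 or more of 8 arrays were kept, which left 21574 for testing. The ages were compared with lmFit and eBayes of limma 3.58.1 under R 4.3.3 (no covariates, two-sided, Benjamini-Hochberg adjusted over all probe sets tested, threshold 0.05). Differences are of mean log2 values, and intervals are 95% intervals of that fit. Python 3.11.15 with numpy 2.4.6, pandas 2.3.3 and matplotlib 3.10.9 served for summaries and plots. The calculation was tested on simulated data made from these arrays. Precision is limited by the number of arrays (median standard error 0.17 on the log2 scale).

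Of the 23999 probe sets, 10069 carry 1 gene symbol, 198 carry several and name no gene here, and 13732 carry none. Symbols of list genes were updated through the gene ID with RefSeq's table for Sscrofa11.1 (9961 matched). For lists, the probe set of highest mean log2 intensity stood for its gene, and listed genes that share 1 probe set were counted once. Listed genes with no probe set under their name in the annotation were left out, though the study names some of them, such as F13A1 and SOX18. The 10 genes, the 6 pathway lists and the 11 marker lists were chosen with earlier results of these data known. Named were all probe sets of the 10 genes, up to 5 called genes of each pathway list and up to 4 of each marker list by smallest adjusted p, and the 3 genes nearest to each called gene among the 10, and others named were chosen after their values were seen. No genome positions or sequences are given.

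Alternatives were no filter, a stricter filter (50th percentile in at least 4 arrays), the methods' test, an intensity trend with robust variances, median centring, quantile normalization, array quality weights, a block for the replicate number, an offset or a floor of 16 before log2, and each array left out in turn. The inclusion of GGTA1 by gene ID was added after the data were seen. The replicate numbers gave no sign of pairing the pigs, with correlations of equal-numbered arrays' deviations between -0.0135 and 0.0049.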

Additional observations from a re-analysis of the deposited data

Results flagged for a closer look

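CD55 on probe set A had 1 array far from the others of its age. The 3-day-old replicate 3 read 31.0, while the other 3-day-old arrays lay between 87.2 and 107, and on the log2 scale its gap to the nearest of them was 0.838 of the whole range of the group, above Dixon's critical value. Of 40 groups of 4 arrays examined this way, 1 stood out, and chance alone sets apart about 1 group in 20.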

How the results depend on the processing

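Of the probe sets chosen by symbol, 2 were called lower and 0 higher at 7 days. The number called higher was 0 in every alternative run. The number called lower was 3 with an intensity trend, with array quality weights or with GGTA1 included, and lay between 1 and 3 with 1 array left out, while THBD passed in each of the 8 such fits. Over all probe sets, 2305 were called, against 3491 with an intensity trend and robust variances, and 1020 to 1877 with 1 array left out, of which replicate 2 of 7 days left the fewest. Outside the 10 genes, the lists' calls were lost in 86 of 328 combinations of called gene and left-out array, spread over 16 genes. The cause of these changes was not tested, but a fit without an array rests on fewer samples.

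With the replicate number as a block, 0 probe sets were called over the array and 0 of those chosen by symbol, although 5264 had an unadjusted limma p under 0.05 and the methods' test, without the block, called 2125. Equal numbers gave no sign of pairing the arrays, and the labels do not say whether they do. The differences of THBD (-2.18, limma adjusted p = 0.0576) and F3 (-0.63, limma adjusted p = 0.106) kept their size under the block.

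Differences that turned sign were all of probe sets that did not pass. CMAH (0.05) became -0.042 with an offset of 16 and -0.114 with a floor of 16, and lay between -0.782 and 0.680 with 1 array left out. The same range was -0.063 to 0.0032 for CD46 A, -0.076 to 0.125 for CD46 B, -0.068 to 0.097 for CD46 C and -0.085 to 0.510 for CD55 A, whose only negative value was that without replicate 3 of 3 days. CMAH and most CD55 probe sets lay near the 20th percentile, where the signal limits what can be seen.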
